A study of Mus musculus with 6 samples.

Results

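Replication-dependent histone cluster genes code for the H1, H2A, H2B, H3 and H4 proteins around which new DNA is packed, and their RNA was followed here in mouse medulloblastoma cells with and without the long noncoding RNA Miat. The genes were taken by symbol, as every name made of Hist1, Hist2, Hist3 or Hist4 followed by h and a histone type. This gave 68 of the 24063 symbols in the count tables, 6 for H1, 18 for H2A, 19 for H2B, 12 for H3 and 13 for H4. The symbols place 54 of them in Hist1, which lies on chromosome 13, 10 in Hist2 on chromosome 3, 3 in Hist3 on chromosome 11 and 1, Hist4h4, on chromosome 6. One of the 3 in Hist3, Hist3h2bb-ps, is annotated as a pseudogene.

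The cells are stem-like medulloblastoma cells, and the labels give cerebellum as the tissue. All 3 groups carry the genotype Math1-Cre; SmoM2, in which a Cre driven by the Math1 promoter of granule neuron progenitors switches on an active Smoothened, so the control cells are tumour cells too. The control group received the CRISPR guide sgGal4-4, named for a yeast gene and labelled WT, and the other two groups received sgMiat-6 or sgMiat-96, both labelled as Miat knockdown. Each group has 2 libraries, and the labels do not say whether they came from separate cultures, so the p-values measure only the spread between these libraries, which may be technical.

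Most of a cell's histone protein is made during S phase from these genes, which lie in clusters, lack introns and exist in many near-identical copies. Their mRNA normally ends just after a short hairpin, the histone stem-loop, which is bound by the stem-loop binding protein Slbp, and it carries no poly(A) tail. Npat, a substrate of cyclin E and Cdk2, gathers at the clusters and switches them on. The libraries were made with a kit for mRNA from total RNA, so the forms of these genes that carry a poly(A) tail may be over-represented, and the counts below do not measure the stem-loop-ended pool. Fewer cells in S phase and less histone RNA per cell cannot be told apart in bulk RNA.

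The stem-loop is shown for 8 members, chosen because the results below turn on them, with the 16 bases of the hairpin in capitals, from the GENCODE M21 transcripts on GRCm38. Each is read in the direction of transcription.

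Hist3h2ba: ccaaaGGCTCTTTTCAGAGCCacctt

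Hist3h2a: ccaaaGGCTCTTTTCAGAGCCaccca

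Hist1h1c: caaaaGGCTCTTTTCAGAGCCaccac

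Hist1h2ag: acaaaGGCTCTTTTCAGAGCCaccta

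Hist1h3c: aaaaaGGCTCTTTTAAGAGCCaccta

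Hist1h4b: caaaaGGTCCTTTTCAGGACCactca

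Hist1h4c: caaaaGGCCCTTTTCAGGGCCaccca

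Hist1h4i: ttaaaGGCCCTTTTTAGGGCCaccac

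The hairpins of Hist3h2ba (chr11:58949349-58949364) and Hist3h2a (chr11:58955172-58955187) lie on the plus strand, as do those of Hist1h1c (chr13:23739512-23739527) and Hist1h4b (chr13:23757366-23757381). Those of Hist1h2ag (chr13:22042483-22042498), Hist1h3c (chr13:23745047-23745062), Hist1h4c (chr13:23698089-23698104) and Hist1h4i (chr13:22040966-22040981) lie on the minus strand. The hairpin searched for had an arm of 6 bases, GG followed by 4 bases of C or T, a loop of 4 bases and full pairing. It was found within 150 bases after the stop codon in 46 of the 67 members with a coding transcript. It was found in 0.0559% of 44715 coding transcripts of other genes searched the same way. The 46 hairpins take 8 forms, and the pattern searched for fixes part of each. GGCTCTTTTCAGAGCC, the most frequent, occurs in 26 members, of which 3 are H1, 10 are H2A, 8 are H2B and 5 are H3. None of the 12 H4 hairpins has it. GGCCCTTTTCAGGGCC occurs in 7 members, all of them H4. In 21 members no hairpin was found, which says only that these letters are not in the annotated stretch searched, since many of these models end at or near the stop codon.

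Miat checks the labels. Its counts were 140 and 139 in the sgGal4-4 libraries and 0 in each of the 4 Miat guide libraries. The libraries had totals of 18438891 to 19650274 counts, and a level of 3 counts is equal to 0.149 to 0.173 CPM (counts scaled to library size with TMM). Within each group the 2 libraries were further apart than counting error, the chi-square over genes being 4.12, 19.1 and 14.0 in sgGal4-4, sgMiat-6 and sgMiat-96, where 1 would be counting error alone. Of 14 markers of granule neuron progenitors and Hedgehog medulloblastoma, 12 passed the filter, while Atoh1, the gene also called Math1, was at 0 in every library. The summed level of 8 astrocyte markers was 2840 to 2930 CPM in the control libraries, 745 to 838 with sgMiat-6 and 660 to 677 with sgMiat-96, and that of 8 neural stem cell markers 4410 to 4570, 6540 to 7190 and 7340 to 7850. The sum of 8 neuron markers was 746 to 747, 365 to 498 and 292 to 297 CPM, that of 8 oligodendrocyte markers 40.0 to 40.4, 11.7 to 11.8 and 9.5 to 12.2, that of 8 endothelial and fibroblast markers up to 10.8, 0.561 to 0.893 and 0.618 to 1.04, and that of 8 microglia and macrophage markers at most 1.08 in any library. Markers within a sum did not all move alike. With both guides 2 of 3 tested neuron markers rose and 1 fell, and 1 of 3 oligodendrocyte markers rose and 1 fell. Of 7 tested astrocyte markers 1 rose and 6 fell, of 7 stem cell markers 4 rose and 1 fell, and 2 endothelial and fibroblast markers fell. Over all genes tested, 33.1% rose and 33.4% fell. The part of the shifts in marker sums in the histone results was not tested.

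The members together took a small share of each library, and a few of them took most of that share. Their summed counts were 3096 and 3141 in the control libraries, 2096 and 2155 with sgMiat-6, and 3674 and 3094 with sgMiat-96. The sum was 159 ± 0.249 CPM (SD, n = 2, as for every SD below) in sgGal4-4, 107 ± 4.28 in sgMiat-6 and 193 ± 19.8 in sgMiat-96, and the 3 groups did not overlap. As a share of each library's total count, with no TMM scaling, the members took 0.0168% and 0.0170% in the control, 0.0107% and 0.0111% with sgMiat-6, and 0.0187% and 0.0167% with sgMiat-96, so the sgMiat-96 libraries then took in the control range. Hist1h2bc, Hist1h1c, Hist2h2be, Hist3h2a, Hist1h4i, Hist3h2ba and Hist1h2ag held 70.9% of all member counts, and 12 members had a mean of at least 2 CPM. Per length, Hist1h2bc (36.2 FPKM), Hist3h2ba (33.6 FPKM) and Hist1h1c (26.8 FPKM) had the highest means in the control group, followed by Hist1h4i (19.6 FPKM) and Hist3h2a (10.5 FPKM). Hist2h2be, with 13.8 ± 0.0545 CPM, came to 3.63 FPKM because its counted transcript is 2618 bases long.

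**Figure D1:**
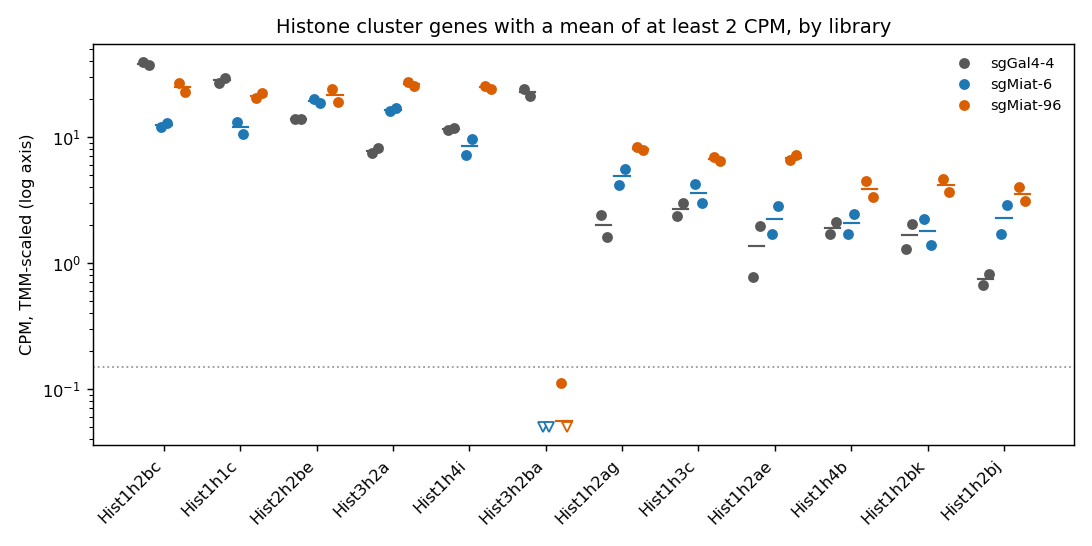
Level of the 12 members with a mean of at least 2 CPM in each of the 6 libraries, on a log axis in CPM; points are libraries, short bars are group means, open triangles are libraries at 0 and the dotted line marks 3 counts in the deepest library. Hist3h2ba drops from about 22.6 CPM in sgGal4-4 to 0 or 2 counts, and Hist1h4i is lowest with sgMiat-6 and highest with sgMiat-96.

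The change with the greatest fold among the members was the loss of Hist3h2ba, an H2B gene on chromosome 11 (chr11:58948920-58949533, plus strand). It had 463 and 420 counts in the control libraries, 0 and 0 with sgMiat-6, and 2 and 0 with sgMiat-96. Both control libraries therefore stood at 22.6 ± 1.82 CPM and all 4 Miat libraries lay below the level of 3 counts. With 3 counts over both sgMiat-6 libraries taken as the floor, its level there was at least 299-fold lower. The ratio of control to sgMiat-96 level was 396, with a 95% interval of 109 to 3280 (Clopper-Pearson, counting error only). It was called lower with both guides (adjusted p = 4.63e-10, edgeR quasi-likelihood test), and under all 15 alternatives tried.

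Its neighbour Hist3h2a, an H2A gene that starts 5765 bases further on the same strand (chr11:58954685-58956830), moved the other way. Its counts were 144 and 160 in the control, 322 and 331 with sgMiat-6, and 488 and 439 with sgMiat-96. The 3 groups did not overlap, at 7.76 ± 0.487, 16.4 ± 0.655 and 26.4 ± 1.48 CPM. The log2 fold change with both guides was 1.42 ± 0.14 (SE, adjusted p = 1.36e-06). Trim17, whose annotated start coincides with that of Hist3h2a, had 17 to 37 counts in every library and was not called, and since strandedness is not stated, reads of overlapping genes cannot be told apart. The pseudogene Hist3h2bb-ps, which lies between the pair, had 0 to 5 counts. Of the other genes within 100 kb, Rnf187, which flanks the pair on the opposite strand, rose with both guides by 0.70 (4525 and 4515 control counts, 6134 to 7715 in the Miat libraries). Trim11 rose by 0.65, 2810021J22Rik rose from 10 and 10 control counts to between 91 and 145 in the Miat libraries (adjusted p = 3.39e-07), Zfp39 fell by 1.03, and Btnl10 was at 0. These neighbours were named after their values had been seen.

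The stretches before the 2 gene starts are shown because the pair moved in opposite directions. They are the 250 bases before the start from RefSeq on GRCm38, with CCAAT boxes, the TATAAA motif and the octamer ATTTGCAT in capitals on either strand.

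Hist3h2ba: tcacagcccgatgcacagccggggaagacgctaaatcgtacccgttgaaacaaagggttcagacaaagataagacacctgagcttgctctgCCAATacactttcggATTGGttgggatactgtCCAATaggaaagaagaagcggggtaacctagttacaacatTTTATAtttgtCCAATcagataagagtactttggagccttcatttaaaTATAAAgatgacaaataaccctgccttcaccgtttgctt

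Hist3h2a: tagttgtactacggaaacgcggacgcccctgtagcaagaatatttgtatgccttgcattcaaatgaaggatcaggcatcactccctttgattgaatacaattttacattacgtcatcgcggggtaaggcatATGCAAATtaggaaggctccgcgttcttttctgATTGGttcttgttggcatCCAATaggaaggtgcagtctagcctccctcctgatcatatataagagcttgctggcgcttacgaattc

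The Hist3h2ba window (chr11:58948661-58948910, plus strand) holds 4 CCAAT and 2 TATAAA and no octamer, and the Hist3h2a window (chr11:58954435-58954684, plus strand) holds 2 CCAAT, no TATAAA and 1 octamer. RefSeq start sequences were matched for 62 members, with windows that run 50 bases past the start. CCAAT was present in 53 of the 62 (85.5%), against 37.3% of 32788 windows of other genes, and in all 50 members of the H1, H2A, H2B and H3 types and 3 of 12 H4 members. TATAAA was present in 56.5% against 13.5%. The octamer was present in 13 members (21%) against 1.7% of other windows, 7 of them H2A and 6 H2B. The octamer was added after values had been seen. A match is a description of letters and not a bound site.

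Among the 44 members that passed the filter on low counts, 10 rose and 7 fell with both Miat guides against sgGal4-4 at an adjusted p under 0.05. In that comparison 33.1% of the 13220 genes tested rose and 33.4% fell, so shares of 22.7% and 15.9% among the members lay below both backgrounds. Their median log2 fold change was 0.06, beside 0.00 over all genes. Against sgGal4-4, sgMiat-6 had 6 members higher and 10 lower, where 26.9% of all genes rose and 26.1% fell. For sgMiat-96 it was 16 higher and 5 lower, where 34.0% of all genes rose and 34.2% fell. The members' medians in these comparisons, which share the control libraries, were -0.24 and 0.62. Members that passed only through a group in which they are high had to differ, so these counts describe the 44 and not the family. Single libraries weighed on the lower calls, though a smaller share of all genes fell too in most of the fits below. Without sgGal4-4 replicate 1, 4 members fell with both guides and 3 with sgMiat-6. The 10 lower calls with sgMiat-6 were 5 without sgGal4-4 replicate 2, and 6 without sgMiat-6 replicate 1 or either sgMiat-96 replicate. The 5 lower calls with sgMiat-96 were 3 without either control or either sgMiat-96 replicate. Scaled by total counts, 6 members rose and 11 fell with sgMiat-6 and 14 rose and 6 fell with sgMiat-96. Of all genes 23.9% then rose and 28.1% fell with sgMiat-6, and 26.7% and 42.0% with sgMiat-96.

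**Figure D2:**
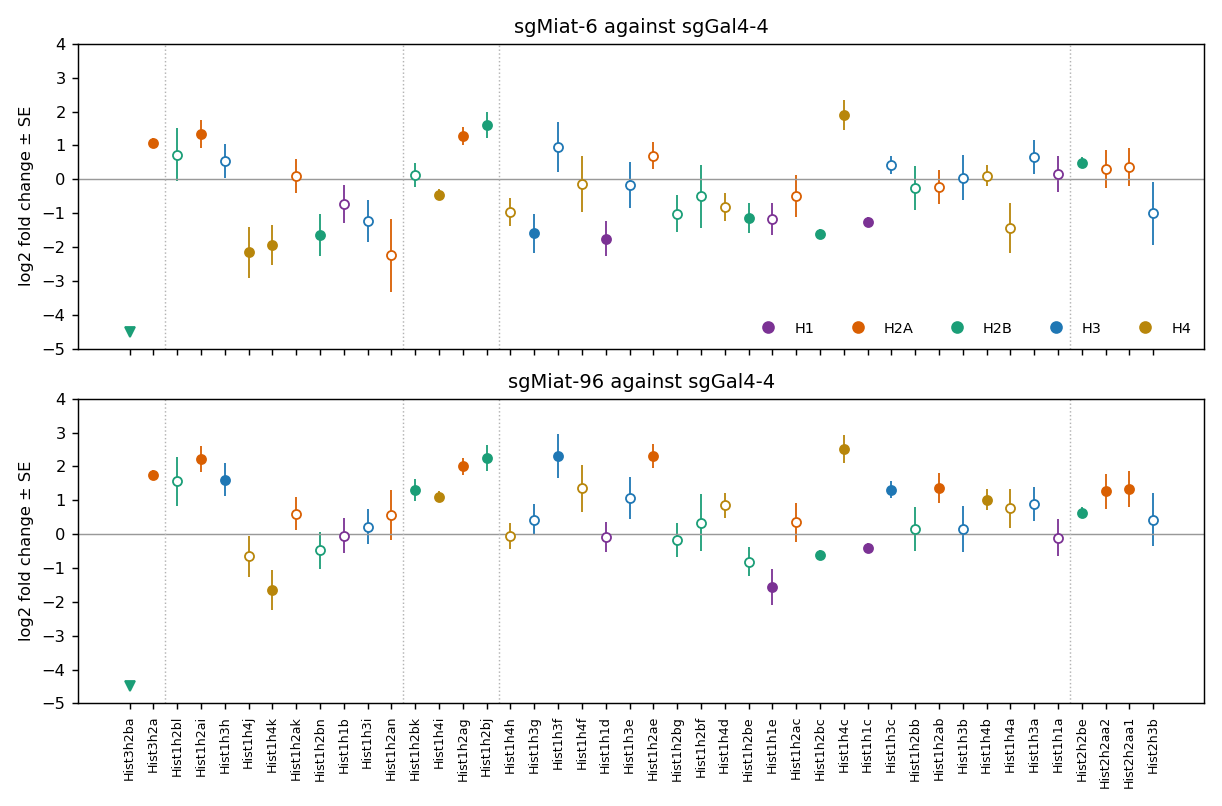
Log2 fold change ± SE of the 44 tested members against sgGal4-4 for sgMiat-6 (top) and sgMiat-96 (bottom), in genome order within stretches divided by dotted lines; colour is the histone type and filled points were called. Triangles mark Hist3h2ba, whose value lies below the axis, and most H2A members lie above 0 in the lower panel.

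By histone type the calls fell out as follows. With both guides 4 of the 10 tested H2A members and 3 of the 9 H3 members rose and none fell, while 2 of 5 H1 members fell and none rose. In that comparison 33.1% of all genes rose and 33.4% fell. Of other genes under 1000 bases 56.3% rose and 13.6% fell. The 11 H2B members split into 2 higher and 3 lower, and the 9 H4 members into 1 higher and 2 lower. With the trend over transcript length removed (below), 4 H2A members rose and none fell, 3 H1 members fell, 2 H2B members rose and 5 fell, 1 H4 member rose and 4 fell, and of the H3 members none rose and Hist1h3g fell. Summed over the 18 H2A members, the level was 16.4 ± 0.746 CPM in sgGal4-4, 29.3 ± 1.66 in sgMiat-6 and 52.9 ± 5.18 in sgMiat-96. Of these sums Hist3h2a alone held 7.76, 16.4 and 26.4 CPM. The groups did not overlap, and the H2A share of all member counts went from 10.3% in the control to 27.4% and 27.5%. The H2B share went from 51.5% to 36.5% and 30.7%. Its sum went from 82.0 ± 2.45 CPM to 39.1 ± 0.121 and 59.3 ± 9.45, and without Hist3h2ba the control sum was 59.4 ± 0.627, within the range of the sgMiat-96 libraries (52.6 and 65.9). H1 stood at 32.1 ± 1.72, 13.9 ± 1.28 and 24.0 ± 0.931 CPM, with no overlap between groups. The sums, and the differences between types, were not tested.

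**Figure D3:**
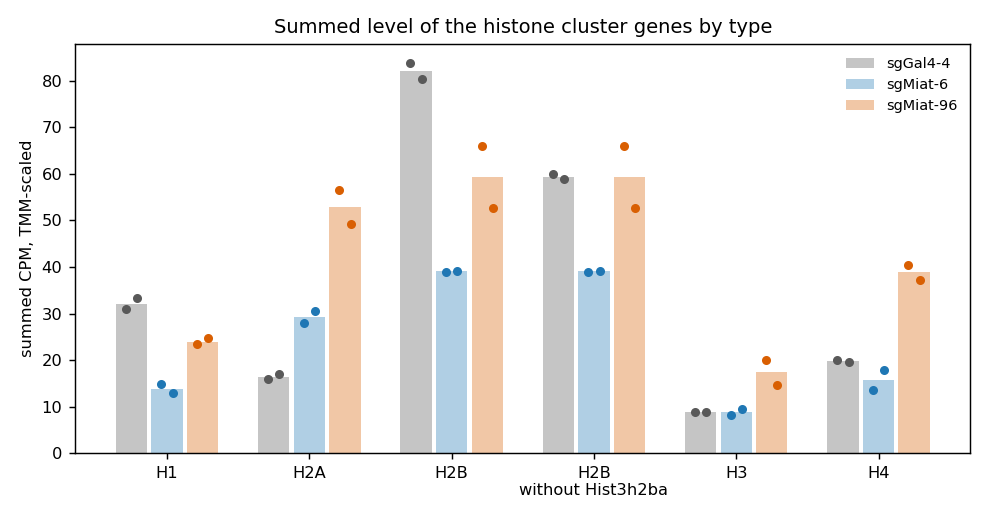
Summed level of the members of each histone type in CPM; bars are group means, points are the 2 libraries of each group, and the H2B sum is shown with and without Hist3h2ba. The H2A libraries order as sgGal4-4, sgMiat-6, sgMiat-96 without overlap, and H3 and H4 are highest with sgMiat-96.

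H1 is the linker histone, which binds between nucleosomes, and 3 of its members were called lower in at least 1 comparison. Hist1h1c, the most counted of them, had 524 and 580 counts in the control, 265 and 207 with sgMiat-6, and 362 and 386 with sgMiat-96. The groups did not overlap, and its log2 fold change with both guides was -0.83 ± 0.13 (adjusted p = 7.68e-05). Hist1h1e had 31 and 32 counts in the control against 5 to 19 in the Miat libraries and fell by 1.37 ± 0.42 (adjusted p = 0.0104). Hist1h1d was called lower with sgMiat-6 (23 and 21 control counts, 9 and 4 with sgMiat-6, 22 and 15 with sgMiat-96), and the guides differed from each other by 1.67 ± 0.53 (adjusted p = 0.0269). Neither call was made with DESeq2 in place of edgeR. Hist1h1a and Hist1h1b had 57 to 71 counts over the 6 libraries and were not called in any comparison. Hist1h1t, known for its expression in the testis, was at 0 in every library.

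H2A pairs with H2B in the nucleosome, and its called members rose. Hist1h2ag (chr13:22042460-22042944, minus strand) had 47 and 32 counts in the control, 84 and 110 with sgMiat-6, and 147 and 137 with sgMiat-96. The groups did not overlap, and the rise with both guides was 1.63 ± 0.24 on the log2 scale (adjusted p = 5.15e-05). Hist1h2ai had 13 and 10 counts in the control, 30 and 29 with sgMiat-6, and 58 and 40 with sgMiat-96, again without overlap, and rose by 1.78 ± 0.36. Hist1h2ae had 15 and 39 in the control, 34 and 55 with sgMiat-6, and 116 and 124 with sgMiat-96. Its control and sgMiat-6 libraries overlapped, and it was called with sgMiat-96 (2.31 ± 0.36, adjusted p = 9.35e-05) and with both guides. Hist1h2ab was called higher with sgMiat-96, at 49 and 23 counts against 13 and 18. Hist2h2aa1 and Hist2h2aa2, copies of identical coding sequence whose counts differ by 1, had 31 and 19 with sgMiat-96 against 8 or 9 and 14 in the control, and they cannot be told apart. For each, a second row of the same length, not used here, had 11 and 12 control counts. That row had 15 and 7 counts with sgMiat-6 and 6 and 8 with sgMiat-96, so it did not rise. With the length trend removed Hist1h2ab (0.37, adjusted p = 0.457), Hist2h2aa1 (0.38) and Hist2h2aa2 (0.35) were not called with sgMiat-96, nor were the last 2 when scaled by total counts. Hist1h2ac and Hist1h2ak were not called in any comparison.

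H2B held the most counts and moved in both directions. Hist1h2bc (chr13:23684199-23692908, plus strand) had 760 and 737 counts in the control, 244 and 251 with sgMiat-6, and 481 and 394 with sgMiat-96. All 3 groups were apart, and its log2 fold change with both guides was -1.12 ± 0.12 (adjusted p = 2.37e-06). Hist1h2be had 32 and 23 counts in the control and 10 to 15 in the Miat libraries and fell by 0.98 ± 0.36, a call that 6 of the 15 alternatives did not make. Hist1h2bn fell with sgMiat-6 (13 and 12 counts against 5 and 3), a call not made with DESeq2, with no filter on low counts or with a replicate block. Hist2h2be, on chromosome 3 (chr3:96221119-96223738, plus strand), rose from 267 and 273 counts to 405 and 365 with sgMiat-6 and 426 and 330 with sgMiat-96. Its fold change was 0.56 ± 0.14 (adjusted p = 0.00265), and the 2 Miat guides overlapped. Hist1h2bj rose from 13 and 16 counts to 34 and 56, and 71 and 54, or by 1.93 ± 0.35. Hist1h2bk rose with sgMiat-96, from 25 and 40 to 82 and 63, while its sgMiat-6 libraries (45 and 27) overlapped the control, and its call was lost once the length trend was removed (0.33, adjusted p = 0.436). Hist1h2bb, Hist1h2bf, Hist1h2bg and Hist1h2bl, each with under 70 counts in all, were not called.

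H3, whose tail carries many of the marks used in gene regulation, had 3 members that rose with both guides. Hist1h3c had 46 and 59 counts in the control, 85 and 59 with sgMiat-6, and 123 and 111 with sgMiat-96. The higher control library and the lowest Miat library stood next to each other, at 2.99 and 3.01 CPM. The rise was 0.87 ± 0.23 on the log2 scale (adjusted p = 0.00436), and with the length trend removed it was 0.21 (adjusted p = 0.492) and not called. Hist1h3f (4 and 3 control counts, 10 and 4, then 17 and 15) rose by 1.63 ± 0.62 and Hist1h3h (15 and 23, 20 and 36, then 76 and 29) by 1.08 ± 0.44. The control and sgMiat-6 libraries of both overlapped, and 9 and 7 of the 15 alternatives did not make these 2 calls. Hist1h3g was called lower with sgMiat-6 (19 and 14 control counts against 8 and 3), with 23 and 17 counts with sgMiat-96. The lower call was not made with DESeq2 or when some single libraries were left out. Hist1h3a, Hist1h3b, Hist1h3e, Hist1h3i and Hist2h3b were not called in any comparison.

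H4 pairs with H3, and 1 of its members stood below the control with one guide and above it with the other. The call above it was lost once the length trend was removed, and the call below it under several other alternatives. Hist1h4i (chr13:22040636-22041362, minus strand) had 219 and 231 counts in the control, 146 and 188 with sgMiat-6, and 452 and 420 with sgMiat-96. The 3 groups did not overlap, with sgMiat-6 below and sgMiat-96 above the control. It was called lower with sgMiat-6 (-0.45 ± 0.17, adjusted p = 0.0424) and higher with sgMiat-96 (1.11 ± 0.16, adjusted p = 5.4e-05), and the difference between guides was 1.56 ± 0.17 (adjusted p = 0.000234). With the length trend removed these values were -0.84 (adjusted p = 0.00051), 0.08 (adjusted p = 0.631) and 0.91 (adjusted p = 0.00188). The lower call with sgMiat-6 was not made with DESeq2, with no filter on low counts or with a replicate block. It was also lost with only the control and sgMiat-6 libraries in the model, and when some single libraries were left out. Hist1h4c rose from 10 and 10 counts to 27 and 49, and 57 and 47 (2.21 ± 0.39 with both guides). Hist1h4k fell from 26 and 20 counts to 2 and 10, and 8 and 5, or by 1.79 ± 0.49. Hist1h4j fell from 10 and 13 to 1 and 4, and 5 and 8, a call that 8 of the 15 alternatives did not make. Hist1h4b was called higher with sgMiat-96 (33 and 42 control counts, 34 and 48 with sgMiat-6, 79 and 58 with sgMiat-96), a call not made with the length trend removed (0.01, adjusted p = 0.986). Hist1h4f and Hist1h4h were not called.

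By position, in stretches drawn after the values had been seen, 1 short stretch held 4 members called higher with sgMiat-96, a call made for 34.0% of all genes and for 63.4% of other genes under 1000 bases. With gaps over 100 kb as borders, the members fall into 7 stretches, of which 1 on chromosome 13 is 8.51 kb long (chr13:22035164-22043676) and holds Hist1h2ah, Hist1h2bk, Hist1h4i, Hist1h2ag and Hist1h2bj. The 4 of these that were tested were all called higher with sgMiat-96, and with the length trend removed Hist1h2ag and Hist1h2bj were. Their stretch summed to 16.1 ± 0.388 CPM in the control, 17.6 ± 2.71 with sgMiat-6 and 40.8 ± 2.46 with sgMiat-96, so the sgMiat-6 libraries (15.7 and 19.5) took in the control range and the sgMiat-96 libraries stood apart. The longest stretch, of 29 members over 233 kb (chr13:23531050-23764406), had 4 members higher and 4 lower with both guides among 24 tested, and it summed to 88.0 ± 0.0604, 44.3 ± 1.76 and 85.8 ± 6.62 CPM. The 10 members of Hist2 summed to 16.9 ± 0.596, 21.7 ± 1.73 and 26.5 ± 4.22 CPM, of which Hist2h2be held most.

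The guides also differed from each other. Between sgMiat-96 and sgMiat-6, 16 of the 44 tested members were higher with sgMiat-96 and 0 were lower. Of all genes tested 17.8% were higher and 18.8% lower. Scaled by total counts it was 12 and 0 members, where 10.4% of all genes were higher and 28.1% lower. The members' median log2 difference was 0.91, beside 0.01 over all genes, and 42 of 44 members had a positive value. The 2 libraries of each guide did not overlap in 30 members, sgMiat-96 being above in all 30, where 35.2% of all genes had sgMiat-96 above and 34.6% below without overlap. The 16 were Hist1h4i, Hist1h2bc, Hist1h1c, Hist1h2ae, Hist3h2a, Hist1h4d, Hist1h3c, Hist1h2bk, Hist1h3g, Hist1h2ab, Hist1h4a, Hist1h1d, Hist1h2ag, Hist1h4b, Hist1h2an and Hist1h2ai. Hist1h4d, for instance, had 26 and 19 control counts, 12 and 14 with sgMiat-6, and 35 and 38 with sgMiat-96. It was not called against the control with either guide, and the guides differed by 1.66 ± 0.39 (adjusted p = 0.00661). Without sgMiat-96 replicate 1, or without sgMiat-6 replicate 1 or replicate 2, fewer members were called higher. A smaller share of all genes was called higher too, except without sgMiat-6 replicate 2. In these fits the members' medians were 0.70, 0.95 and 0.95, beside 0.00, 0.01 and 0.01 over all genes. Under all 16 alternatives the calls of Hist1h4i and Hist1h2bc were made.

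Transcript length moved with these differences. The counted rows of the 44 tested members had a median length of 485 bases, against 2843 bases over all genes tested, and 42 of them were under 1000 bases. In these libraries short transcripts in general were higher with the Miat guides. Of 1142 other tested genes under 1000 bases, 56.3% rose and 13.6% fell with both guides, with a median log2 fold change of 0.58. Between sgMiat-96 and sgMiat-6 the same genes were higher in 48.1% and lower in 5.95%, with a median of 0.50. The limit of 1000 bases was chosen after the values had been seen. With the trend over length removed from each library, 7 members rose and 13 fell with both guides and the members' median went from 0.06 to -0.57. Over all genes tested, 32.6% then rose and 32.5% fell. Between the guides 3 members, rather than 16, were then higher with sgMiat-96, 0 were lower, and the median was 0.30. Of all genes 12.4% were then higher and 11.4% lower. Hist3h2ba, Hist1h2bc and Hist1h1c stayed lower, and Hist3h2a (0.76, adjusted p = 0.000319), Hist1h2ag (0.96), Hist1h2ai (1.09), Hist1h2bj (1.22), Hist1h4c (1.48), Hist1h2ae (0.86) and Hist2h2be (0.52) stayed higher. The sign with both guides changed in 9 of the 44 members, among them Hist1h4i (-0.38, adjusted p = 0.0163). Of the 16 higher calls with sgMiat-96, 9 were lost, those of Hist1h2ab, Hist1h2bk, Hist1h3c, Hist1h3f, Hist1h3h, Hist1h4b, Hist1h4i, Hist2h2aa1 and Hist2h2aa2. Whether length itself, or what short transcripts share, bears on these differences was not tested.

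**Figure D4:**
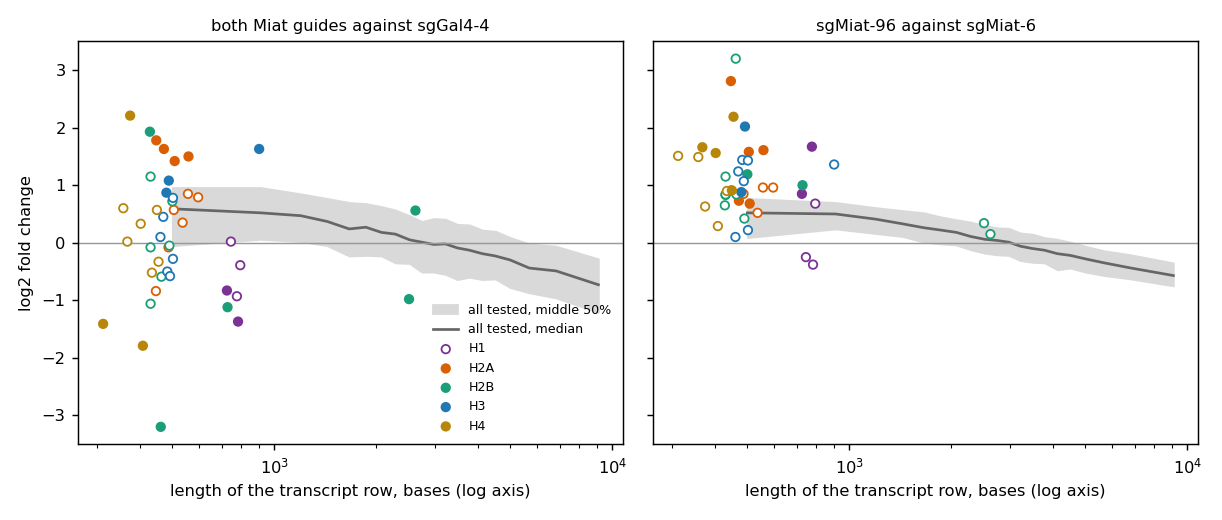
Log2 fold change against the length of the counted transcript row on a log axis, for both Miat guides against sgGal4-4 (left) and sgMiat-96 against sgMiat-6 (right); the line and band are the median and the middle 50% of all tested genes in 20 length groups, points are members coloured by histone type, filled where called. Hist3h2ba is drawn at the edge of each panel, beyond which its values lie. Most members sit at the short end, where the median of all genes is above 0 in both panels.

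Of the 68 members, 24 did not pass the filter. Hist1h1t, Hist1h2aa and Hist1h2ba were at 0 in all libraries, and 2 of these, Hist1h2aa and Hist1h2ba, are the testis pair that lies apart on chromosome 13. The other 21 had at least 1 count and no more than 14 in any library. Those that reached 10 counts in a library were Hist1h2bm, Hist1h4m, Hist1h4n, Hist1h2af, Hist1h3d, Hist2h2ac, Hist2h3c1 and Hist2h3c2. Hist2h2ac had 9 and 1 counts in the control, 0 and 0 with sgMiat-6, and 10 and 4 with sgMiat-96. Hist1h3d had 14 and 5 in the control, 4 and 1 with sgMiat-6, and 8 and 6 with sgMiat-96, with control and sgMiat-96 overlapping. No test was made of these 24 members.

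Near-identical copies limit how far single members can be read. The coding sequence of a member was a median 98.4% identical to its nearest other member, and 10 members share an identical coding sequence with another. Hist1h2ao and Hist1h2ap, Hist1h4m and Hist1h4n, Hist2h3c1 and Hist2h3c2, and Hist1h2bq and Hist1h2br had the same counts in every library, so each pair may be 1 set of reads counted for both. The H1 genes are the least alike, from 64.3% for Hist1h1t to 84.5% for Hist1h1c, and Hist3h2ba (90.8%) and Hist3h2a (89.8%) also stand apart from their nearest members. Hist1h2bc is 99.5% identical to its nearest member over the coding part, and how the authors assigned reads that fit several copies is not given in the sources used here.

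Counts were set beside the annotated 3′ end, since transcripts that run past the hairpin are the ones that can carry a poly(A) tail. Of the 46 members with a stem-loop, 23 have a GENCODE transcript that runs over 100 bases past it, and these had a median of 69.0 counts over the 6 libraries. The 23 that end within 100 bases had a median of 58.0, and the 21 without a hairpin 49.0. The counted RefSeq rows end a median 5 bases past the hairpin by the current RefSeq gene models, so the extensions annotated for Hist1h1c (840 bases) and Hist3h2a (1643 bases) lie past the end of the counted row. Hist1h2bc and Hist2h2be are annotated with 742 and 2192 bases after the stop codon and no hairpin in the stretch searched. With both guides 4 members with the longer end rose and 5 fell, against 3 and 0 of those with the shorter end, among 16 and 15 tested. Of the 13 tested without a hairpin 3 rose and 2 fell. Over all genes tested 33.1% rose and 33.4% fell, and of other genes under 1000 bases 56.3% rose and 13.6% fell. The difference between these splits was not tested.

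**Figure D5:**
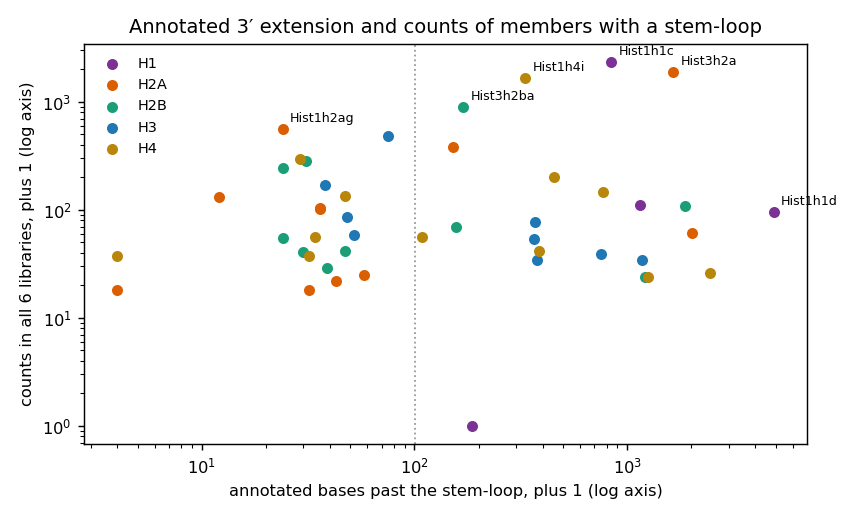
Annotated bases past the stem-loop (GENCODE M21, log axis, plus 1) against the counts over the 6 libraries (log axis, plus 1) for the 46 members with a stem-loop, coloured by histone type. The dotted line marks 100 bases, and members with high and low counts stand on both sides of it.

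The genes that make and handle histone mRNA changed in both directions. Of 25 genes for its synthesis and processing, 14 rose and 6 fell with both guides, or 9 and 7 scaled by total counts and 9 and 6 with the length trend removed. Over all genes tested, 33.1% rose and 33.4% fell with both guides. Npat, the activator of the clusters, fell by 0.73 ± 0.13 on the log2 scale (55.1 ± 2.24 CPM in the control, 39.6 ± 9.15 with sgMiat-6, 28.0 ± 2.06 with sgMiat-96), and stood at -0.15 (adjusted p = 0.239) with the length trend removed. Slbp, which binds the stem-loop, rose by 0.36 ± 0.10 (69.7 ± 2.47, 89.4 ± 8.99 and 90.2 ± 0.657 CPM), a call not made with the length trend removed (0.14, adjusted p = 0.17) or scaled by total counts (0.24, adjusted p = 0.0592). The 4 with the smallest adjusted p were Pou2f1, which codes for the octamer-binding factor Oct1 (-1.49 ± 0.14, adjusted p = 7.52e-07), the cyclin E genes Ccne2 (1.21 ± 0.12) and Ccne1 (1.09 ± 0.11), and Snrpb (1.03 ± 0.11), a core protein of spliceosomal particles that is also found in the U7 particle that cuts histone mRNA. Of 13 tested genes for export, translation and decay, 4 rose and 4 fell, near the shares over all genes. It was 8 and 3 with the length trend removed and 2 and 4 scaled by total counts. The uridylating enzymes Zcchc11 (-1.03 ± 0.13) and Zcchc6 (-0.68 ± 0.11) and the exonuclease Xrn1 (-2.23 ± 0.31) were among the lower ones, and Mif4gd, which acts in translation of histone mRNA, rose by 0.66 ± 0.13.

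Replication-independent histone variants, which are made outside S phase as well and mostly end in a poly(A) tail, were also counted. With both guides 9 of the 11 tested rose and 1 fell, or 6 and 2 with the length trend removed, where 33.1% of all genes rose and 33.4% fell. With sgMiat-6 it was 6 and 2, or 3 and 3 with the length trend removed. H2afj rose from 73.9 ± 10.9 CPM to 207 ± 39.4 and 442 ± 43.6 (2.03 ± 0.14), H2afy by 0.86 ± 0.09, H2afx, whose protein is phosphorylated at DNA breaks, by 0.65 ± 0.10, H3f3b by 0.54 ± 0.09, H2afz by 0.52 ± 0.10 (0.04 and not called with the length trend removed) and Cenpa, the variant of centromeres, by 0.60 ± 0.11. H1f0, a linker histone of differentiated cells, fell by 0.93 ± 0.08 (502 ± 10.4, 234 ± 7.12 and 296 ± 13.5 CPM). H3f3a was not called, at 953 ± 14.5, 780 ± 3.43 and 1040 ± 119 CPM, and was called lower with the length trend removed (-0.55) and scaled by total counts (-0.21). Between the guides 10 of the 11 were higher with sgMiat-96 and 0 lower, or 6 and 0 with the length trend removed, where 17.8% of all genes were higher.

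Histone chaperones and S phase genes were counted for comparison. Over all genes tested, 33.1% rose and 33.4% fell with both guides. Of 24 chaperones and import factors, 8 rose and 5 fell with both guides, and 5 rose and 8 fell scaled by total counts. Asf1b (1.31 ± 0.11) and Chaf1b (0.93 ± 0.10), which hand new histones to DNA behind the replication fork, rose, and the importin Ipo9 (-0.63 ± 0.09) and the remodeller Atrx (-0.97 ± 0.15, and -0.20 and not called with the length trend removed) fell. Of 21 S phase genes 11 rose and 2 fell, with Gins2 (1.21 ± 0.11), Tk1 (0.75 ± 0.11) and Rrm2 (0.58 ± 0.09) higher and Mcm6 (-0.80 ± 0.09) lower. Between the guides 3 of these 21 were higher and 2 lower with sgMiat-96, where 17.8% of all genes were higher and 18.8% lower. Scaled by total counts it was 0 and 3. The median of the S phase genes was 0.05, beside the members' median of 0.91 in the same comparison. Other genes under 1000 bases, the length of most members, had a median of 0.50 there. With the length trend removed the members' median was 0.30. The difference between the members and these lists was not tested.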

How the data were processed

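RNA-seq counts of 6 libraries, 2 for each of 3 guides, were analysed. The submitters' processing notes name STAR and the builds GRCm38 and mm10. The version of STAR, the read counter and the annotation are not given in the sources consulted. The authors deposited whole-number counts and FPKM per RefSeq transcript row, per the file headers. The deposited FPKM equal the count divided by row length and library total. The row lengths derived from them differed between libraries by at most 2.3e-07 bases from their median. Of 33984 rows, the row with the highest total count was kept per symbol, since isoform rows share reads. A count of 1 stands beside a FPKM of 0 in 11223 rows of sgMiat-96 replicate 2, and was set to 0.

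The test was edgeR 4.0.16, run with limma 3.58.1 under R 4.3.3 (filterByExpr, TMM, a model of 3 groups with 3 residual degrees of freedom, quasi-likelihood tests, Benjamini-Hochberg over 13220 genes, prior count 0.125). Calls need an adjusted p under 0.05. Standard errors are the size of the log2 fold change over the root of F. A group at 0 was given a floor of 3 counts over the group, and ratios with 1 to 3 counts a 95% Clopper-Pearson interval. The steps were tested on simulated data for both guides against sgGal4-4 with 12982 genes. They recovered 73.8% of 1.5-fold, 93.8% of 2-fold and 100% of 4-fold changes, with 15 of 186 calls false. Every simulated gene and group had the same spread beyond counting error, and few genes were changed, unlike in these data. The rates therefore need not hold for the members.

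The members and lists were chosen with earlier results of these data known. Every member is accounted for. Members that passed the filter are named, as are others with at least 10 counts in a library. Of each list the text names up to 4 called genes with the smallest adjusted p, plus Slbp, Npat, H2afx, H2afz, H3f3a, H3f3b, H1f0 and Cenpa. Gene positions and stem-loops come from GENCODE M21 and start sequences from RefSeq, both on GRCm38. DESeq2 1.42.0 and Python 3.11.15 served for alternatives and tables.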

Additional observations from a re-analysis of the deposited data

Results flagged for a closer look

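The effects of the 2 Miat guides differed in 16 members, by the edgeR test of sgMiat-96 against sgMiat-6 with adjustment over all genes tested, and sgMiat-96 was the higher guide in each. In the same comparison 17.8% of all genes tested and 48.1% of other genes under 1000 bases were higher with sgMiat-96. The count was 3 with the length trend removed, where 12.4% of all genes were higher, and 8 with DESeq2, where 16.6% were. Fewer members were also called without sgMiat-96 replicate 1, sgMiat-6 replicate 1 or sgMiat-6 replicate 2. A smaller share of all genes was called too, except without sgMiat-6 replicate 2. The log2 differences were 2.81 for Hist1h2an, 2.19 for Hist1h4a, 2.02 for Hist1h3g, 1.67 for Hist1h1d, 1.66 for Hist1h4d, 1.61 for Hist1h2ae, 1.58 for Hist1h2ab and 1.56 for Hist1h4i. They were 1.19 for Hist1h2bk, 1.00 for Hist1h2bc, 0.91 for Hist1h2ai, 0.91 for Hist1h4b, 0.88 for Hist1h3c, 0.85 for Hist1h1c, 0.73 for Hist1h2ag and 0.68 for Hist3h2a. Hist1h2an rests on 1 and 2 counts with sgMiat-6 against 17 and 3 with sgMiat-96. The calls of Hist1h4i and Hist1h2bc were made under all 16 alternatives, and each of the other 14 was lost under at least 1. Hist1h2an could be tested under 13 of the 16.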

How the results depend on the processing

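With the trend over transcript length removed, 13 members fell with both guides, 16 fell with sgMiat-6, 7 rose and 9 fell with sgMiat-96, and 3 were higher with sgMiat-96 than with sgMiat-6. Of all genes 32.5% then fell with both guides and 27.3% with sgMiat-6. With sgMiat-96 32.4% rose and 32.4% fell, and 12.4% were higher between the guides. The sign with both guides then changed in 9 of the 44 members, including Hist1h4i (-0.38) and Hist1h4b (-0.13). With DESeq2, 4 members fell with both guides, 3 with sgMiat-6 and 3 with sgMiat-96, and 8 were higher with sgMiat-96 than with sgMiat-6. Of all genes 31.1%, 23.5% and 31.8% then fell in these comparisons, and 16.6% were higher between the guides. With no filter on low counts, 6 fell with sgMiat-6, where 18.8% of all genes fell. The cause was not tested.

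Leaving out 1 library at a time changed how many members were called. The members' median log2 fold change then ran from -0.02 to 0.37 with both guides and from -0.46 to -0.16 with sgMiat-6. It ran from 0.31 to 0.88 with sgMiat-96 and from 0.70 to 1.14 between the guides. No pairing of replicate numbers is given by the labels, and the deviations of same-numbered libraries correlated at 0.002, -0.077 and -0.185 across genes. With a replicate block, 8 members rose and 5 fell with both guides, 6 and 7 with sgMiat-6, 14 and 5 with sgMiat-96, and 14 were higher and 0 lower between the guides. Of all genes 31.2% then rose and 31.9% fell with both guides, 24.5% and 24.2% with sgMiat-6, and 32.2% and 32.5% with sgMiat-96. Between the guides 14.5% were higher and 16.1% lower.

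Scaling by total counts moved the median log2 fold change of all genes to -0.13 with both guides, -0.20 with sgMiat-96 and -0.14 between the guides, and higher calls over all genes from 49.9% to 38.9% of calls with sgMiat-96 and from 48.6% to 27.1% between the guides. Members rising and falling with both guides were then 9 and 9, where 27.1% of all genes rose and 39.3% fell. The control sums became 169 CPM for all members, 34.1 for H1, 17.5 for H2A, 87.0 for H2B, 9.41 for H3, 21.1 for H4, 119 for Hist1, 18.0 for Hist2 and 32.4 for Hist3. H2B with sgMiat-6 became 39.9, and with sgMiat-96 H1 became 22.2, H4 35.8, Hist3 24.5 and Hist4 0.315. Counting copies with the same counts once gave control sums of 159 for all members and 8.46 for H3. The sums were not run with the length trend removed, since offsets exist only for tested genes.

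For single members, 36 results were each set against their alternatives, with both guides and between the guides. Of these 552 checks 452 kept direction and side of the threshold, 94 lost the call, 4 gained it and 2 changed sign. Allowing 1 open pair in the stem-loop added 0 members. Most members have few counts, and 24 could not be tested.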
